A study of Mus musculus with 18 samples.

Results

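Macrophages from mice labelled LDHA KO were compared with macrophages from mice labelled LDHA WT. Both had been exposed to interferon gamma (IFN-gamma), the cytokine that drives classical macrophage activation. The comparison took the 6 columns of the deposited normalized-count table that belong to IFN-gamma: 3 libraries from mice labelled LDHA KO and 3 from mice labelled LDHA WT, out of 18 libraries in all. The other 12 libraries came from the same 6 animals without cytokine or with interleukin 4 (IL-4), and served here to estimate the spread and to show whether a difference was also present without IFN-gamma.

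The cells were primary bone marrow-derived macrophages. Marrow was flushed from mouse femurs, red cells were lysed, and the cells were cultured for 7 days in medium holding macrophage colony-stimulating factor at 30 ng/mL and serum at 15%, followed by 24 h of recombinant mouse IFN-gamma in the groups compared. WT and KO libraries shared every step of this protocol. The dose of IFN-gamma, the age and strain of the mice, the Ldha allele and any Cre driver are not given in the labels. Each genotype was represented by 3 animal codes, so the replicates are separate animals. Poly(A)-selected RNA was sequenced with a directional kit.

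Ldha encodes the A chain of lactate dehydrogenase, which interconverts pyruvate and lactate while exchanging NADH and NAD+. IFN-gamma binds a receptor built from the Ifngr1 and Ifngr2 chains, and signals from this receptor induce interferon regulatory factors. These in turn drive guanylate-binding proteins, antigen presentation, chemokines and the nitric oxide synthase Nos2. Macrophages activated in this way rely strongly on glycolysis, which regenerates its NAD+ through lactate dehydrogenase or through shuttles into the mitochondrion.

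The targeted gene was checked first. Ldha (chromosome 7, 46841475 to 46855627, plus strand, GRCm38) had normalized counts of 36750, 38900 and 36200 in the WT libraries and 9190, 9315 and 10120 in the KO libraries. KO libraries thus held 25.6% of the WT mean, a log2 fold change of -1.97 ± 0.0761 (SE, limma, adjusted p = 2.29e-11), and the groups did not overlap. Lyz2, the myeloid lysozyme gene on another chromosome, fell far further: WT libraries held 232200, 223900 and 200000, and KO libraries 190.5, 173.2 and 204.4, or 0.0866% of the WT mean. Effects of the change in Ldha and effects of whatever removed the Lyz2 transcript cannot be told apart in these groups.

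The cells carried markers of macrophages in both genotypes. Of 14 markers, the 13 other than Lyz2 all had a normalized count of at least 2155 in each of the 6 libraries, and at most 11.8% of genes in the table had a higher mean than any of them. Library depth with IFN-gamma ran from 20.1 to 39.5 M reads, and the mitochondrial share from 0.952 to 1.38%. WT replicate 1 stood apart from the other WT libraries. The chi-square per gene was 54.7 and 60.4 against replicates 2 and 3, and 4.38 between those. KO replicate 1 also lay farther from its group, at 34.5 and 31.4 against KO replicates 2 and 3, with 14.1 between those. Many results that rest on WT replicate 1 are given with and without it, but smaller moves of list counts are not all given.

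Values below are normalized counts, that is, read counts divided by a size factor per library, given in the order of replicates 1, 2 and 3. Changes are log2 fold changes of KO over WT on the scale of log2 of the normalized count plus 1, with the standard error from limma fitted over all 18 libraries. That fit shares a gene's estimate of spread over all groups, so untreated and IL-4 libraries also enter the standard error. For a gene with few counts outside IFN-gamma, the standard error is therefore not the spread of the IFN-gamma libraries alone. P-values were adjusted by the Benjamini-Hochberg method over all 14288 genes tested, and genes with an adjusted p under 0.05 are called higher or lower. Fewer cells of a type and less RNA per cell cannot be told apart in such bulk samples.

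KO and WT macrophages differed broadly under IFN-gamma. Of the 14288 genes, 3980 differed (27.9%), 2038 higher in KO (14.3%) and 1942 lower (13.6%), and 883 of them differed at least 2-fold, 603 upward and 280 downward. The median change over all genes was 0.00885. Groups did not overlap for 6083 genes (42.6%), 3029 with KO above WT (21.2%) and 3054 with KO below WT (21.4%). These shares are the background for each list of genes described next: of 1394 genes in 72 lists, 1300 were in the table and 1230 were tested. Without WT replicate 1 the count was 3142, of which 2813 were among the 3980, none in the opposite direction. Without KO replicate 1 it was 2916, of which 2796 were among the 3980, again none in the opposite direction.

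**Figure D1:**
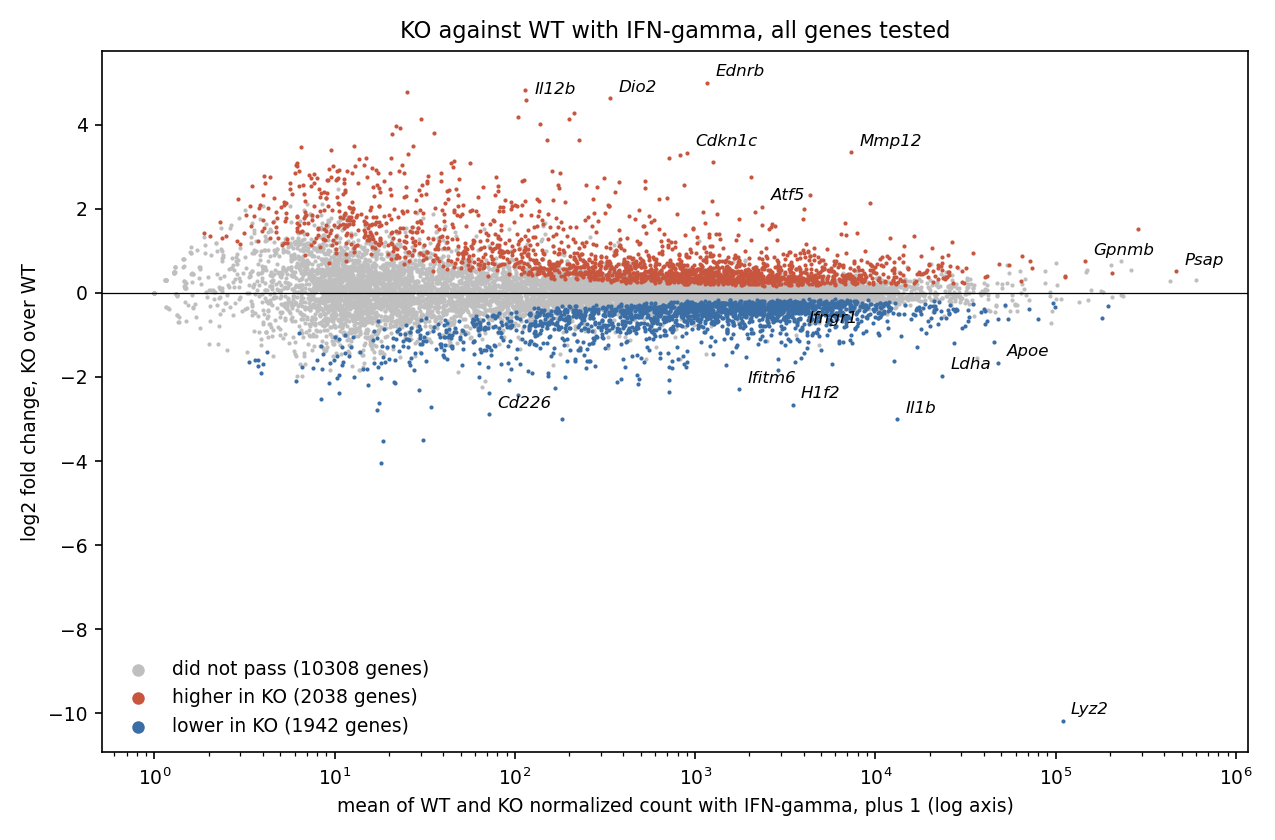
Log2 fold change of KO over WT with IFN-gamma against the mean normalized count plus 1 (log axis), with a point for each of the 14288 genes tested, red where higher in KO, blue where lower and grey where the gene did not pass. Lyz2 lies alone near the bottom at -10.17, and Ednrb is the highest labelled gene at 4.999.

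The ligand-binding chain of the IFN-gamma receptor and 3 interferon regulatory factors, 1 of them at the threshold, were lower in KO macrophages. Of 14 genes for the receptor, JAK kinases, STAT factors and their phosphatases, 5 were lower and 1 higher. Ifngr1, the ligand-binding receptor chain (chromosome 10, 19591949 to 19610229, plus strand), stood at 5435, 4727 and 4652 in WT and at 2558, 2762 and 2752 in KO, a change of -0.87 ± 0.0846 (adjusted p = 1.29e-06). Every KO library lay below every WT library, and the KO mean was 54.5% of the WT mean. Smaller declines were seen for Tyk2, a JAK kinase (-0.31), Stat5b (-0.39) and Ptpn6, the phosphatase SHP-1 (-0.37). Stat5a was higher by 0.33 ± 0.0915, a difference that did not pass without WT replicate 1 (0.28, adjusted p = 0.0501). Among 13 genes for inhibitors of the SOCS and PIAS families, only Pias1 differed in the limma fit, at -0.33.

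Among 8 interferon regulatory factors tested, 3 were lower and none higher, with a median change of -0.36. Irf8, a factor that maintains myeloid identity (chromosome 8, 120736358 to 120756694, plus strand), measured 54520, 49000 and 49310 in WT and 32110, 29260 and 30270 in KO. Its change was -0.74 ± 0.0693 (adjusted p = 9.57e-07), and every KO library lay below every WT library. Irf2, which competes with Irf1 for its binding sites, measured 6061, 6387 and 6237 against 4204, 4679 and 4251, a change of -0.51 ± 0.0912 (adjusted p = 0.000552). Irf1, an early target of IFN-gamma signalling, lay on the threshold: 65760, 54000 and 53050 in WT and 46740, 45810 and 47190 in KO, -0.30 ± 0.109 (adjusted p = 0.04999), and -0.20 (adjusted p = 0.222) without WT replicate 1. The Irf1 call ended in 11 of 19 alternatives.

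The promoters of these regulatory factors are shown because the gamma-activated site is a promoter motif known from IFN-gamma responses. It was searched as TTCNNNGAA on both strands of the 250 bases before each gene start in RefSeq (GRCm38.p6). All 8 factors had a promoter in that collection, and 3 held a match, against 7.02% of 32851 promoters and 8.13% of 27025 genes. They were Irf1, Irf2 and Irf8, which were lower in KO, Irf1 only at the threshold. In 2 other lists searched for the same letters a match did not go with a call: Gbp5 and Gbp7 held one among 5 guanylate-binding proteins with a promoter, H2-DMb2 among 11 MHC class II genes, and none of these 3 genes passed. A match is a description of the letters and shows no binding. The stretches around the matches read as follows, all on the plus strand, 5′ to 3′, with the matched letters in capitals. Irf1 lies at chr11:53769899-53769957, with the match starting 90 bases before the gene start. Irf2 lies at chr8:46739496-46739554, with the match starting 224 bases before. Irf8 lies at chr8:120736162-120736220, with 2 matches, the first starting 171 bases before.
Irf1: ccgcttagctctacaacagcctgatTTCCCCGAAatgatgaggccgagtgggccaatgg
Irf2: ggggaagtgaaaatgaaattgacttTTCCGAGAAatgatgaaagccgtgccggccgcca
Irf8: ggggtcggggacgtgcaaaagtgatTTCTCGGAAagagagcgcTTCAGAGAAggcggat

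Few effector genes of the interferon response passed in the fit over all 18 libraries, and more did with the 6 IFN-gamma libraries alone or with edgeR. Of 11 guanylate-binding proteins, which attack vacuoles that hold pathogens, only Gbp2b was lower, at 8172, 11740 and 11110 in WT and 3286, 5491 and 4859 in KO (-1.20 ± 0.361, adjusted p = 0.0199). The Gbp2b call ended with a pseudocount of 0.5 and without KO replicate 1, WT replicate 2 or WT replicate 3 (adjusted p up to 0.0986). With the 6 libraries alone, and with edgeR, 3 guanylate-binding proteins were higher and 1 lower. Gbp11, named after its values were seen, stood at 1313, 1463 and 1455 in WT and 2065, 2584 and 2486 in KO, 0.75 ± 0.523 with an adjusted p of 0.314 over all libraries and 0.00349 with the 6 alone. Among 8 immunity-related GTPases, Irgm1 alone passed, higher by 0.50 ± 0.154, and the median of the list was 0.40. For 7 members the KO libraries were all above the WT libraries, against 21.2% of all genes tested. With the 6 libraries alone, and with edgeR, 4 were higher. Without WT replicate 1 the list had no call in the fit over all libraries, and Irgm1, with an adjusted p of 0.121, was also not called without KO replicate 2 or KO replicate 3. Of 28 antiviral genes known from the type I interferon response, Ifit1 (0.69) and Parp14 (0.68) were higher and Ifi27l2a was lower (-0.63 ± 0.128, adjusted p = 0.00166). With the 6 libraries alone, and with edgeR, 4 were higher and 2 lower. Neither Ifit1 nor Parp14 passed without WT replicate 1 (adjusted p = 0.202 and 0.104), the WT library with the lowest values of both. Parp14 was also lost without KO replicate 2, and Ifit1 with each KO library left out in turn, without WT replicate 3 and with quantile normalization.

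**Figure D2:**
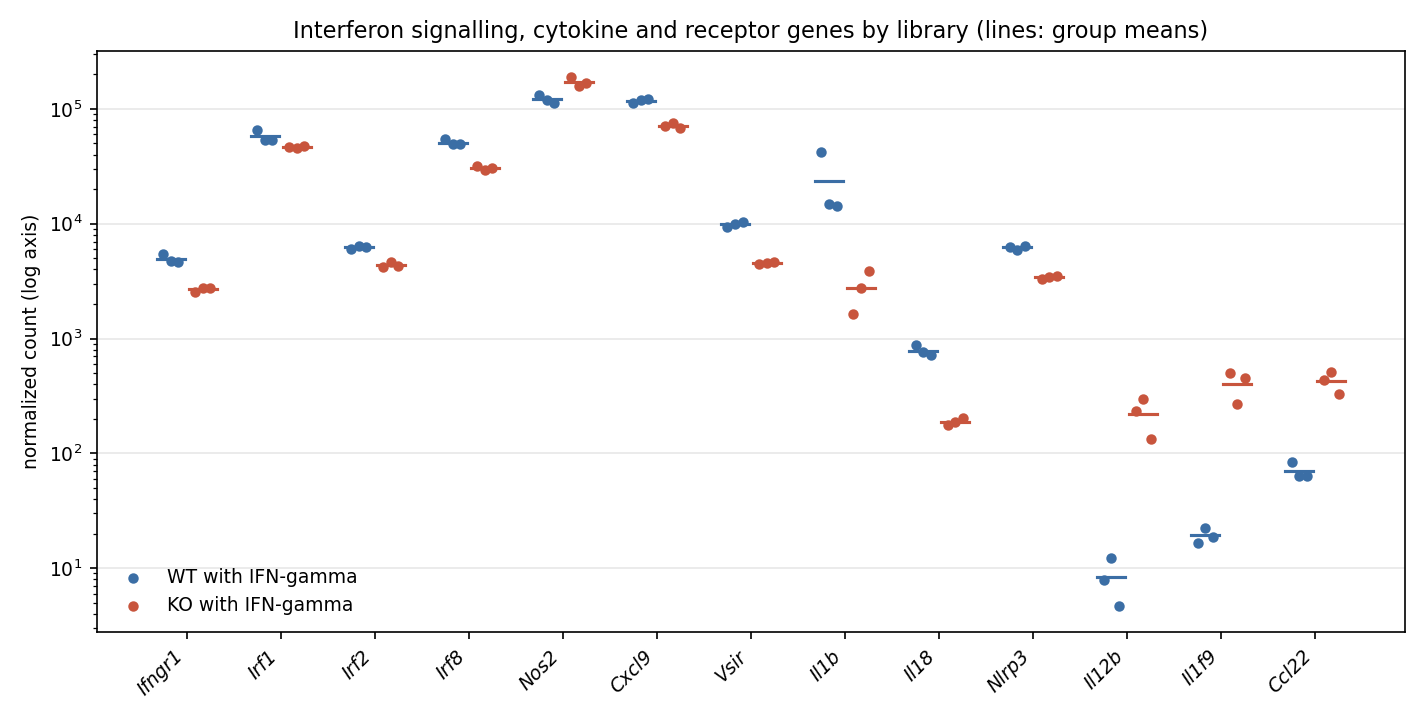
Normalized count (log axis) of 13 interferon signalling, cytokine and receptor genes in each IFN-gamma library, WT in blue and KO in red, with lines at the group means. Ifngr1, Irf8, Vsir and Il18 are among the genes that separate by genotype, and WT replicate 1 lies apart for Il1b.

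Few genes of antigen presentation passed, and those that did differed in both directions. Of 16 class II genes 12 did not pass, and of 22 class I genes 17 did not. Among all genes tested 27.9% passed, 14.3% higher and 13.6% lower. Ciita, the master switch for MHC class II genes, was higher in KO at 10020, 10310 and 8532 against 4795, 6405 and 5876 in WT (0.76 ± 0.217, adjusted p = 0.0146). No KO library of Ciita overlapped a WT library, and without WT replicate 1 the change was 0.64 (adjusted p = 0.0664); it also missed the threshold without KO replicate 1 or KO replicate 2. In contrast, 3 of the 16 class II genes were lower: the invariant chain Cd74 (-0.59), the alpha chain H2-Aa (-0.68) and the promoter-binding factor Rfx5 (-0.56). Those 3 calls also ended without WT replicate 1, with adjusted p of 0.0964, 0.105 and 0.0816. Each of the 3 was also lost without at least 2 of the 3 KO libraries, Cd74 without WT replicate 2 too, and 5 class II genes were lower without WT replicate 3 or with the 6 libraries alone. For MHC class I, 4 of 22 genes were higher, among them the trimming peptidase Erap1 (0.67 ± 0.108, adjusted p = 0.00022) and the peptide editor Tapbpl (0.43). The immunoproteasome subunit Psmb9 was the single class I gene that was lower (-0.34), and 6 alternatives, WT replicate 1 left out among them, ended that call (adjusted p up to 0.134).

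Among costimulatory and checkpoint ligands, 3 of 18 genes were lower and 1 higher (5 lower with the 6 libraries alone). Vsir, which encodes the checkpoint ligand VISTA, stood at 9316, 9954 and 10310 in WT and at 4456, 4575 and 4646 in KO (-1.11 ± 0.0712, adjusted p = 1.32e-08). The KO libraries lay close together, and their mean was 46.2% of the WT mean. Cd80, a ligand of CD28, measured 592, 354 and 341 in WT and 92.5, 130 and 156 in KO (-1.74), and Cd47, the signal that restrains phagocytosis, changed by -0.34. Tnfsf4, the ligand of OX40, was the higher gene, at 158, 144 and 108 against 19.6, 22.5 and 15.3. The checkpoint ligand Cd274 (PD-L1) did not differ, with a change of -0.01 ± 0.188 and overlapping libraries.

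Chemokines of the CC class were more often lower than higher, and most did not pass. Of 12 CC chemokines, 4 were lower, 1 higher and 7 not called, with a median change of -0.41. Ccl6 fell by 1.64, Ccl9 by 0.79 and Ccl5 by 0.62 on the log2 scale, the last with an adjusted p of 0.0765 once WT replicate 1 was left out. Ccl22, a ligand of CCR4, was the exception at 84.5, 63.1 and 63.7 in WT and 438, 507 and 331 in KO, or 6.04-fold higher. The fourth lower gene, Ccl3, had overlapping libraries and lost its call in 4 of 19 alternatives.

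The CXC chemokines that IFN-gamma induces, Cxcl9, Cxcl10 and Cxcl11, attract T cells. Every KO library of each lay below every WT library, which held for 21.4% of all genes tested. Cxcl9 measured 111500, 118600 and 121100 in WT and 70770, 75680 and 67900 in KO, -0.71 ± 0.747 with an adjusted p of 0.52 in the fit over all 18 libraries and 0.00361 with the 6 IFN-gamma libraries alone. Cxcl10 changed by -0.42 (adjusted p = 0.294 and 0.0498 in the same order). Cxcl11, named after its values were seen, changed by -1.23 (0.0568 and 0.000514). The sum over the CXC list was 201300 to 223800 in WT and 144100 to 157800 in KO. Over all 18 libraries 1 of 10 CXC chemokines was called higher and 0 lower; with the 6 libraries alone it was 1 and 3, and with edgeR 2 and 3. The higher gene, Cxcl3, went from at most 4.91 in WT to between 22.5 and 53.9 in KO (3.05).

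Of 18 chemokine and chemoattractant receptors, 4 were higher and 1 was lower (2 and 3 with the 6 libraries alone, 4 and 3 with edgeR, and 2 lower without KO replicate 3 or any WT library). Cxcr4, the receptor for Cxcl12, was higher, going from 826, 627 and 547 to 1840, 1751 and 1607 (1.40 ± 0.116, adjusted p = 2.31e-07).

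Within the interleukin 1 family, 3 of 12 genes were lower and 2 higher, and the cytokines cleaved by inflammasomes were among the lower. Il18 measured 871, 760 and 725 in WT and 175, 187 and 204 in KO (-2.05 ± 0.196, adjusted p = 1.15e-06), a KO mean of 24.0% of WT. Il1b measured 42080, 14750 and 14350 in WT and a mean of 2751 ± 1118 (SD, n = 3) in KO (-3.0 ± 0.584). WT replicate 1 held far more Il1b than the other WT libraries, and without it the change was -2.49 (adjusted p = 0.00739). Of 17 inflammasome and pyroptosis genes, 5 were lower and none was higher in the limma fit. Nlrp3, a sensor of cell stress, stood at 6320, 5950 and 6409 against 3277, 3467 and 3486 (-0.87 ± 0.123, adjusted p = 6.55e-05). The others were Nlrc4, a sensor for bacterial flagellin (-0.89), the DNA sensor Aim2 (-0.40), the adaptor Pycard (-0.40) and Casp8 (-0.36).

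Other cytokines went in both directions, with 10 of 27 higher and 5 lower. Tnfsf13b, the B cell survival factor BAFF, measured 231, 290 and 286 in WT and 1066, 887 and 765 in KO (1.74 ± 0.25, adjusted p = 7.37e-05). Gdf15, a stress-induced cytokine, was higher by 1.12 and the growth factor Hgf by 1.30. Il16, a chemoattractant for CD4-bearing cells, was lower by 1.01 ± 0.17 on the same scale, with no overlap. Tnf (0.16, adjusted p = 0.38), Il6 (-0.28, adjusted p = 0.802) and Il10 (0.35, adjusted p = 0.638) did not pass, and their libraries overlapped.

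Genes of NF-kB, the transcription factor behind many of these cytokines, were more often lower. Of 18 subunits and inhibitors, 8 were lower and 3 higher (median -0.24). Without WT replicate 1, 6 were lower and 3 higher (median -0.16). Nfkbie, an inhibitor that NF-kB itself induces, stood at 10900, 7770 and 7716 in WT and 3774, 3503 and 4084 in KO (-1.20 ± 0.11, adjusted p = 6.77e-07). Rel, the c-Rel subunit, fell from 5313, 4986 and 5299 to 1955, 2658 and 2487 (-1.15 ± 0.15). Nfkbiz, a nuclear cofactor, changed by -0.86. Ikbkg, the regulatory subunit of the IkB kinase, was higher by 0.56 and Tnip1, a restraint on the pathway, by 0.40. Upstream, 6 of 23 Toll-like receptor and adaptor genes were lower and 2 higher (1 higher without WT replicate 1), including Tlr8 (-0.97), the chaperone Unc93b1 (-0.42) and the brake Irak3 (-0.43).

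Immediate early genes, which respond to growth factor and stress signals within minutes, were more often lower than higher. Of 27 tested, 13 were lower, 4 higher and 10 not called (median -0.27; 11 lower without WT replicate 1). Zfp36l1, which destabilises AU-rich messenger RNAs, stood at 4691, 4128 and 4598 in WT and 1079, 1328 and 1364 in KO (-1.84 ± 0.146, adjusted p = 1.5e-07). The phosphatases that switch off MAP kinases were also shifted, with 6 of 14 lower and 3 higher (3 lower without WT replicate 2 or WT replicate 3). Dusp1 (-0.60) and Dusp5 (-1.07, adjusted p = 0.0508 with the 6 libraries alone) were lower, whereas Dusp4 was higher at 1677, 1280 and 1344 against 611, 454 and 448 (1.51 ± 0.135, adjusted p = 5.86e-07). Spry1, a feedback inhibitor of growth factor signals, measured 16.7, 40.6 and 41.3 in WT and 2.75, 0 and 0.87 in KO.

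Histone genes were lower as well, 7 of 13 against 1 higher (5 against 1 without WT replicate 1). H1f2, a linker histone, measured 10960, 3835 and 3475 in WT and 812, 644 and 1115 in KO (-2.65 ± 0.305). The WT value of replicate 1 was again the highest, and without it the change was -2.13 (adjusted p = 9.98e-07). H1f0, the linker histone of resting cells, changed by -1.24 and H2bc4 by -0.99. Transcripts of replication-dependent histones mostly lack a poly(A) tail, so poly(A) selection captures them only in part.

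Receptors for the Fc part of antibodies were mostly lower. Of 16 Fc receptors and their partners, 9 were lower and 1 higher, with a median of -0.41. Higher genes numbered 2 with any WT library left out and 3 with edgeR. Fcgrt, the neonatal Fc receptor that recycles IgG, stood at 2514, 2093 and 2397 in WT and 961, 788 and 895 in KO (-1.41 ± 0.0965, adjusted p = 2.91e-08). The inhibitory receptor Fcgr2b stood at 968, 1274 and 1391 against 398, 457 and 354, a KO mean of 33.3% of WT. Fcgr4, an activating receptor, changed by -0.78 and the inhibitory receptor Pirb by -0.51. Reads of closely related Fc receptors may be shared between paralogs, which the counting cannot resolve.

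Genes of macrophage identity leaned the same way, with 10 of 24 lower and 5 higher. Ptprc, the leukocyte antigen CD45, measured 37580, 40560 and 41930 in WT and 21640, 27520 and 26360 in KO (-0.68 ± 0.103, adjusted p = 0.000139). Aif1, an actin-binding protein of activated macrophages, changed by -1.16 and Itgam, the CD11b chain, by -0.65. Complement genes were divided, 4 of 21 lower and 3 higher, near the shares among all genes (13.6% and 14.3%). Higher complement genes numbered 0 without KO replicate 2, and 1 without KO replicate 1 or with any WT library left out. C1qa, which opens the classical pathway (-1.18), and properdin, Cfp (-0.96), were among the lower. Trem2, a lipid-sensing receptor, was higher at 1241, 736 and 944 against 405, 318 and 358 (1.41 ± 0.148, adjusted p = 3.1e-06).

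Transcripts known from the bone-resorbing cell were mostly higher in KO, and those of the lysosome were more often higher than lower. In a list of 15 osteoclast and cell fusion genes, 10 were higher and none lower, with a median of 0.92. Src, a kinase required for bone resorption, stood at 1772, 1714 and 1503 in WT and 4911, 3597 and 3565 in KO (1.26 ± 0.166, adjusted p = 3.34e-05). Tm4sf19, a membrane protein of multinucleated cells, rose by 2.08, the chloride transporter Clcn7 by 0.59 and the pump subunit Tcirg1 by 0.44. Of 42 lysosomal hydrolases and membrane proteins, 18 were higher, 5 lower and 19 not called (median 0.22); it was 15 and 6 without WT replicate 1, and 12 and 4 with the 6 libraries alone. Arsb, a sulfatase, measured 493, 559 and 539 against 844, 887 and 1003 (0.78 ± 0.0784, adjusted p = 1.9e-06), Tpp1 changed by 0.54 and Gla by 0.48. Ppt1, a thioesterase, was lower by 0.60 ± 0.0728 on the log2 scale, against the direction of most called genes of the list. The vacuolar proton pump had 6 of 18 genes higher and none lower (4 without WT replicate 1), with small changes such as Atp6v1c1 (0.39).

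Among proteases, Mmp12, the macrophage elastase (chromosome 9, 7344381 to 7369499, plus strand), was 10.1-fold higher. It measured 1047, 1706 and 1203 in WT and 15400, 9783 and 14790 in KO (3.34 ± 0.211, adjusted p = 1.32e-08), and the lowest KO library was far above every WT library. Ctsd, the lysosomal aspartic protease, stood at 57160, 53080 and 48650 against 103500, 79410 and 88080 (0.76 ± 0.121). Ctsz (0.60) and the inhibitor Cstb (0.83) were higher too, while Ctsc, which activates granule proteases, was lower (-0.61). Mmp19 (-0.79) and Adam19 (-1.72) were lower.

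Scavenger and efferocytosis receptors, which take up modified lipoproteins and dying cells, were higher in 10 of 27 cases and lower in 1 (9 and 3 without WT replicate 1, and 6 higher without WT replicate 3). Stab1 stood at 2163, 2895 and 3038 in WT and 5283, 4665 and 4133 in KO (0.81 ± 0.145). The bridging ligand Gas6 was higher by 0.82, the receptor Lrp1 by 0.64, the collectin Colec12 by 1.59 and Msr1 by 0.42. No KO library of these 5 genes overlapped a WT library. They were named among called genes, so the choice itself favoured this. Every KO library lay above every WT library for 21.2% of all genes tested.

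**Figure D3:**
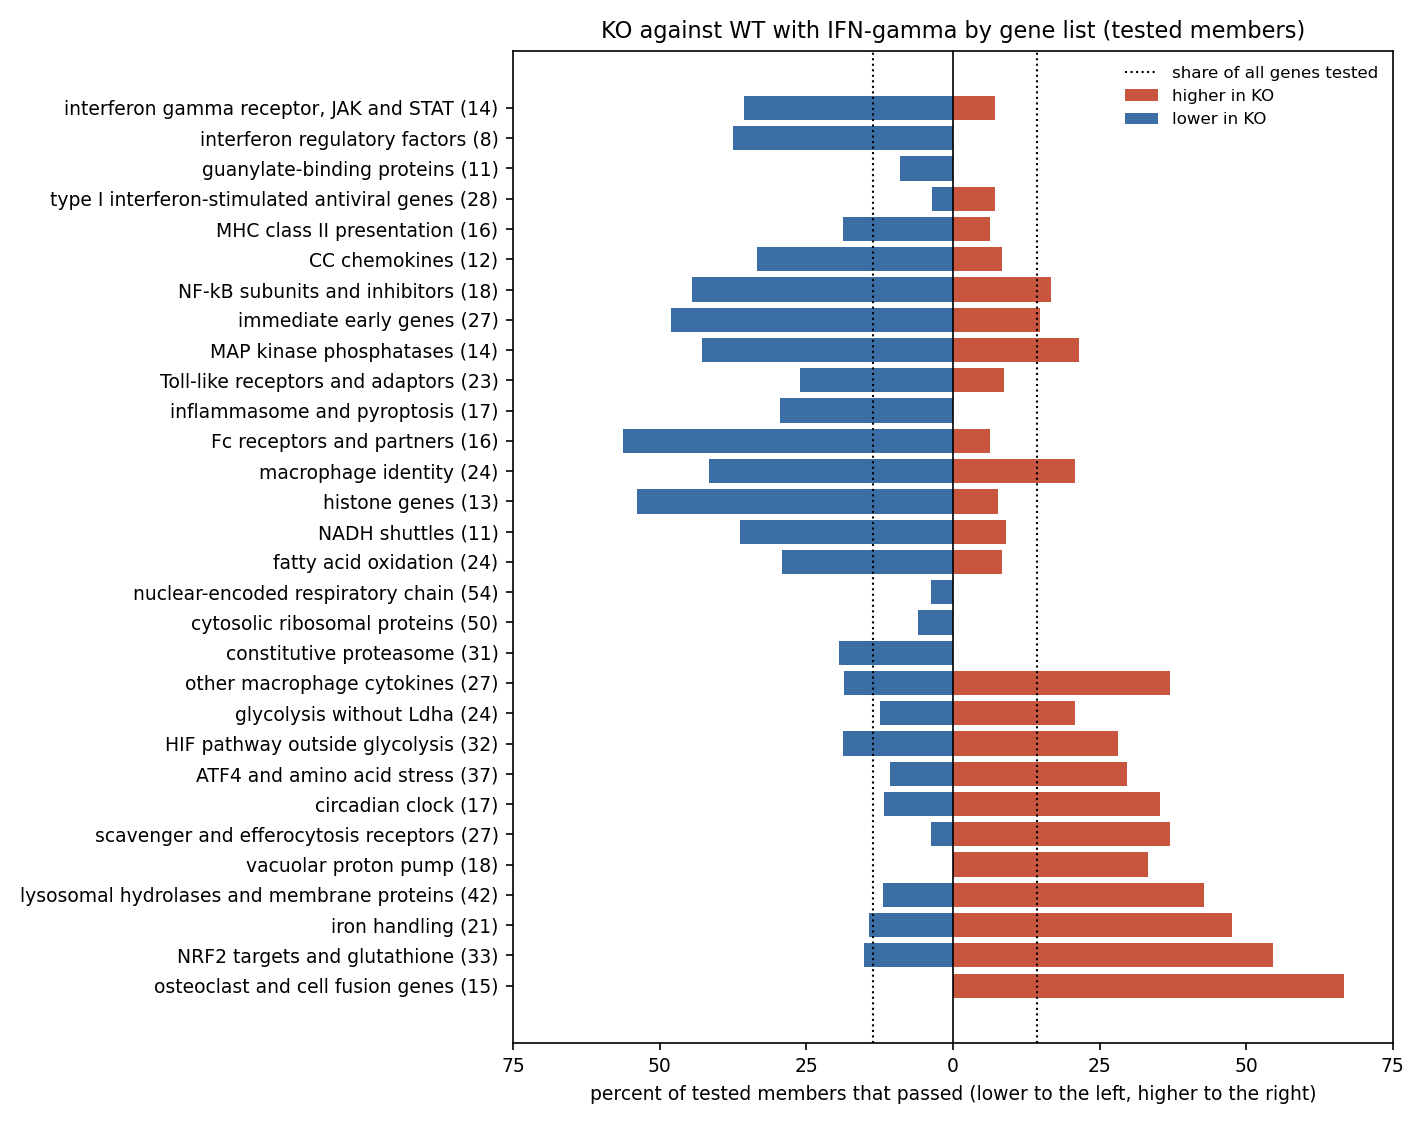
Percent of tested members of 30 gene lists (number tested in parentheses) that were lower in KO (blue, to the left) or higher (red, to the right) with IFN-gamma; dotted lines mark the shares among all genes, 13.6% lower and 14.3% higher. Osteoclast, NRF2, iron and lysosome lists extend to the right, and Fc receptor, histone and immediate early lists to the left.

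Genes of cholesterol handling differed in both directions. Soat1, which esterifies cholesterol for storage, stood at 7544, 7889 and 7698 in WT and 14420, 13560 and 13800 in KO (0.85 ± 0.0645, adjusted p = 8e-08), with little spread in either group. Nceh1, which hydrolyses the same esters, was higher by 0.74, and Mylip, which degrades the LDL receptor, by 0.70. Apoe, the lipoprotein that carries cholesterol out of macrophages, was lower at 50350, 83500 and 82430 in WT and 33610, 24620 and 13300 in KO (-1.66 ± 0.344). Cyp27a1, a sterol hydroxylase, changed by -0.97. In all, 6 of 16 genes of cholesterol efflux and its regulator LXR were higher and 7 lower. Lower genes numbered 4 without KO replicate 3 and 5 without WT replicate 1.

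The fatty acid carrier Fabp4 was 5.87-fold higher, with 249, 125 and 87.3 in WT and 857, 694 and 1151 in KO (2.65 ± 0.264, adjusted p = 1.78e-06). Fabp5, its paralog, changed by 0.88. Of 24 sterol synthesis genes, 6 were higher (3 without KO replicate 1) and 1 lower, including Hsd17b7 (0.71), Acat2 (0.69) and Lss (0.56) against Tm7sf2 (-0.76). Fatty acid synthesis was split 5 and 5 among 16 genes: Fasn, the synthase (1.00), and Acss2, which makes acetyl-CoA from acetate (1.06), were higher, and the elongases Elovl5 (-0.46) and Elovl6 (-0.54) lower. Of 24 genes for fatty acid oxidation, 7 were lower (4 without KO replicate 2, 3 with the 6 libraries alone) and 2 higher. Slc25a20, the carrier that brings acylcarnitine into the mitochondrion, stood at 4169, 3225 and 3130 against 1661, 1737 and 1835 (-0.9966 ± 0.0965, adjusted p = 1.29e-06).

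Glycolysis other than Ldha showed small changes in both directions, 5 of 24 genes higher and 3 lower. Among all genes tested, 14.3% were higher and 13.6% lower. The phosphofructokinase subunits Pfkm (-0.67 ± 0.0934, adjusted p = 5.38e-05) and Pfkp (-0.40) and the regulator Pfkfb4 (-0.55) were the 3 lower genes. Eno1 and Pkm, which act late in the pathway, were each higher by 0.38, and neither passed without WT replicate 1 or without KO replicate 1. Leaving out a library gave 2 higher glycolysis genes for WT replicate 1, 1 for KO replicate 1 and 3 for KO replicate 2. Pgd, of the pentose phosphate pathway, stood at 16970, 17460 and 16980 in WT and 29880, 24330 and 27240 in KO (0.66 ± 0.106), and Taldo1 changed by 0.55. The NADH shuttles, which carry reducing equivalents into the mitochondrion, had 4 of 11 genes lower and 1 higher. Gpd2, the mitochondrial glycerol phosphate dehydrogenase, measured 7501, 6032 and 6000 in WT and 2737, 3283 and 3549 in KO, or 49.0% of the WT mean (-1.03 ± 0.18, adjusted p = 0.000446). Got1 (-0.59) and Mdh1 (-0.33) of the malate-aspartate shuttle were also lower. Of 54 nuclear genes for the respiratory chain, only 2 passed, Ndufs4 (-0.36) and Ndufa6 (-0.37), and 0 passed without WT replicate 1. Of 7 mitochondrially encoded subunits, 2 were higher and 1 lower, and the 2 higher genes, mt-Cytb and mt-Nd5, had their lowest values in WT replicate 1 and did not pass without it.

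Targets of NRF2, the transcription factor that answers oxidative and electrophilic stress, were mostly higher, 18 of 33 against 5 lower (2 lower without WT replicate 1), with a median of 0.44. Slc7a11, which imports cystine for glutathione, stood at 2416, 1132 and 994 in WT and 6467, 6385 and 8496 in KO (2.34 ± 0.341, adjusted p = 8.92e-05). Prdx1, an abundant peroxidase, measured 189600, 170400 and 155300 against 235500, 228800 and 253000 (0.48 ± 0.114), so a modest ratio stood for the largest number of transcripts among these genes that are named here. Gsta3, a glutathione transferase, went from 15.7, 14.7 and 4.72 to 94.4, 72.7 and 131 (3.09 ± 0.403). Gsr, which regenerates glutathione, was higher by 0.51, and Hmox1, which degrades heme, by 0.49.

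The antioxidant response element, searched as TGACNNNGC on both strands of the same promoter windows, was found in 6 of the 27 NRF2 list genes with a RefSeq promoter, against 10.2% of all promoters and 11.5% of all genes. The stretches for Prdx1 and Gsta3 are shown because these genes span the highest and the lowest levels of those named, both on the plus strand, 5′ to 3′, with the matched letters in capitals. Prdx1 lies at chr4:116685441-116685499, with the match on the opposite strand starting 133 bases before the gene start. Gsta3 lies at chr1:21240439-21240497, with the match on the strand shown, 121 bases before the gene start.
Prdx1: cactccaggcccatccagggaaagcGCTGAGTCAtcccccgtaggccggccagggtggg
Gsta3: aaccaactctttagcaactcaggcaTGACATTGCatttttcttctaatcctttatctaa
Of the 6 genes with a match, 3 were higher and 1 lower in KO, and among all 27 with a promoter 14 were higher and 4 lower.

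Other stress responses contained single large changes. Atf5, a transcription factor of the integrated and mitochondrial stress responses, stood at 795, 970 and 968 in WT and 4660, 3249 and 3522 in KO (2.05 ± 0.13, adjusted p = 1.32e-08), or 4.18-fold higher. Of 37 genes of ATF4 and amino acid stress, 11 were higher and 4 lower (2 lower without KO replicate 3, 9 higher without WT replicate 1). Atf4 itself was higher by 0.54 and Phgdh, the entry to serine synthesis, by 1.58, whereas Psat1, the next enzyme, was lower (-0.80). Prdx6 (1.00) and the metallothionein Mt1 (1.34) were higher, and Glrx (-0.87) and Prdx4 (-0.45) lower. Among 27 heat shock and endoplasmic reticulum genes, 3 were higher and 4 lower, near the shares among all genes (14.3% and 13.6%). Lower genes numbered 2 without KO replicate 2, KO replicate 3 or WT replicate 1. Hspa8 changed by -0.61 and Herpud1 by -0.68.

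Hif1a, the oxygen-regulated factor that sustains glycolysis in activated macrophages, was lower at 25740, 21810 and 21850 in WT and 10770, 13560 and 13810 in KO (-0.87 ± 0.161, adjusted p = 0.000734). Its related genes were divided, 9 of 32 higher and 6 lower: the prolyl hydroxylase Egln1 (0.51) and the demethylase Kdm3a (0.55) were higher, and carbonic anhydrase Car9 (-0.84) and Ier3 (-0.96) lower. Genes of iron handling were higher in 10 of 21 cases and lower in 3, with a median of 0.37; without KO replicate 1 there were 5 higher, without KO replicate 2 there was 1 lower, and with the 6 libraries alone 0. The heme exporter Flvcr1 stood at 1480, 1578 and 1525 against 2319, 2341 and 2719 (0.68 ± 0.0766, adjusted p = 6.13e-06). The ferrireductase Steap3 was higher by 0.85, the iron exporter Slc40a1 by 0.75 and Ncoa4, the receptor for ferritin turnover, by 0.58.

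**Figure D4:**
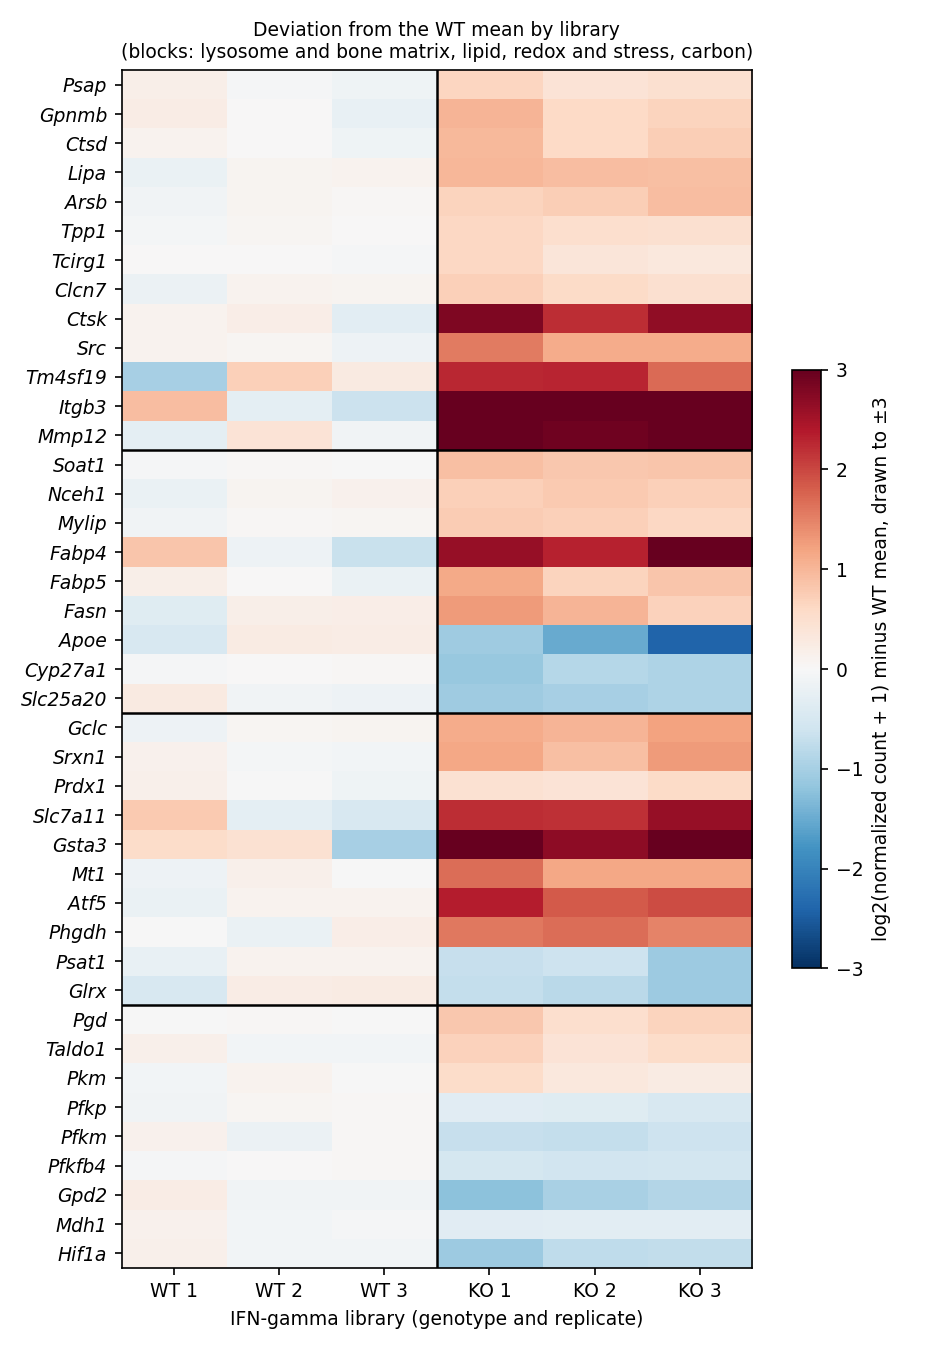
Deviation of each IFN-gamma library from the WT mean on the log2(normalized count + 1) scale, drawn to ±3, for 41 genes in 4 blocks (lysosome and bone matrix, lipid, redox and stress, carbon metabolism). The 3 KO columns share their sign in every row, and the WT columns spread most visibly for Tm4sf19, Fabp4, Itgb3, Slc7a11 and Gsta3.

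Genes of arginine metabolism were divided, 3 of 16 higher and 3 lower, where 14.3% and 13.6% of all genes were. The counts were 4 and 1 with the 6 libraries alone, and 2 higher and 2 lower without KO replicate 1, KO replicate 2 or WT replicate 1. Slc7a2, the arginine importer, was higher at 2612, 1825 and 2392 against 1775, 910 and 525 (1.25 ± 0.319, adjusted p = 0.00749, and 0.0581 with the 6 libraries alone), and Odc1, which opens polyamine synthesis, was lower (-0.88). The enzymes that compete for arginine did not pass in the fit over all 18 libraries: Nos2 changed by 0.50 (adjusted p = 0.145) and Arg1 by 1.30 (adjusted p = 0.0506) at no more than 13.9 counts. The sum over the arginine list was 146500 to 172400 in WT and 196600 to 226500 in KO. Of 14 purinergic receptors and ectonucleotidases, 4 were higher and 4 lower (1 and 4 with the 6 libraries alone, and 2 higher without KO replicate 1 or WT replicate 3). Adora2b, an adenosine receptor, stood at 988, 380 and 455 in WT and 152, 90.1 and 148 in KO (-2.12 ± 0.268), and Adora3 changed by -1.34. Ptges, which makes prostaglandin E2, was higher by 1.21, and the phospholipase Pla2g4a that supplies its substrate was lower (-0.48).

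Genes of cell division were mixed. Of 31 genes of DNA replication, 5 were higher, 3 lower and 23 not called, near the shares among all genes (14.3% and 13.6%). Pcna, the sliding clamp of DNA replication, stood at 3905, 5159 and 5042 in WT and 10030, 8835 and 8390 in KO (0.96 ± 0.146), whereas the origin licensing factor Cdc6 (-1.27) and the polymerase Pole (-1.31) were lower. Cdkn1c, an inhibitor of cyclin-dependent kinases, was 9.55-fold higher at 1940, 987 and 1945 against 288, 108 and 114. The inhibitor Cdkn1b (-0.89) and cyclin Ccnd3 (-0.99) were lower. Of 30 genes of mitosis, 5 were higher and 3 lower (1 and 1 with the 6 libraries alone). Higher genes numbered 2 without KO replicate 2 or WT replicate 3, and 3 without KO replicate 1 or KO replicate 3. Lower genes numbered 0 without KO replicate 2 or WT replicate 1, and 1 without KO replicate 1.

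Smaller families differed in part. Of 17 circadian clock genes, 6 were higher and 2 lower (1 lower without WT replicate 1). Bhlhe41, a clock repressor, stood at 1158, 689 and 610 in WT and 3023, 2128 and 2940 in KO (1.76 ± 0.185, adjusted p = 3.1e-06), and Nfil3, which acts on the same output promoters as Tef, was lower (-1.10) while Tef was higher (0.50). Of 5 Ifitm genes, which block viral entry, 4 were lower: Ifitm6 stood at 3227, 2686 and 2772 against 442, 601 and 763, and Ifitm2 changed by -1.25. Of 50 cytosolic ribosomal protein genes 47 did not pass and 3 were lower, among them Rpl3 at 10220, 9533 and 9530 in WT and 4983, 5472 and 4311 in KO (-0.99 ± 0.0997, adjusted p = 1.85e-06). Ribosomal protein genes have many processed copies, so their counts are uncertain. Of 31 constitutive proteasome genes, 6 were lower and none higher, Psma6 by the most at -0.36. Only 2 were lower without KO replicate 3 or WT replicate 2, and 3 without KO replicate 1 or with the 6 libraries alone. Without WT replicate 1, 4 were lower.

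The largest differences were in genes outside the interferon lists. Ednrb, the endothelin B receptor (chromosome 14, 103814625 to 103844402, minus strand), stood at 95.3, 48.5 and 71.9 in WT and 2332, 2225 and 2186 in KO, or 31.3-fold higher (4.999 ± 0.234, adjusted p = 3.65e-10). The difference was present without cytokine at 63.5 ± 11.6 in WT and 585 ± 70.7 in KO (SD, n = 3), and it was larger with IFN-gamma by 1.81 on the log2 scale. Il12b, the p40 subunit shared by interleukins 12 and 23, was 26.6-fold higher, but from 7.86, 12.4 and 4.72 to 235, 296 and 133, which is a low level in absolute terms.

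The difference between genotypes was itself larger or smaller with IFN-gamma than in untreated cells for 1307 genes (9.15%): 615 were shifted upward (4.3%) and 692 downward (4.84%). In untreated cells 283 genes differed by genotype (1.98%), and with IL-4 941 (6.59%). Each animal gave a library to both treatments, and with the animal as a block the count of shifted genes was 2073, 973 upward and 1100 downward. Vsir, the VISTA gene, was among them: 13190 ± 452 in WT and 13060 ± 1141 in KO without cytokine (SD, n = 3), and -1.09 ± 0.1 for the additional change with IFN-gamma (adjusted p = 1.1e-05). Gpd2 was equal without cytokine within its spread, at 1053 ± 97.9 and 1061 ± 94.5, and Slc25a20 at 999.8 ± 58.8 and 1023 ± 70.3. With IFN-gamma the means were 6511 in WT and 3190 in KO for Gpd2, and 3508 and 1744 for Slc25a20.

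Among lists, immediate early genes had 13 of 27 members shifted downward and 2 upward, lysosomal genes 13 of 42 upward and 2 downward, and osteoclast genes 7 of 15 upward. NRF2 targets had the opposite pattern, with 19 of 33 higher in untreated KO cells and 9 shifted downward with IFN-gamma against 1 upward. Prdx1 is an example, higher by 1.27 without cytokine and by 0.48 with IFN-gamma, a difference of -0.79 ± 0.16 (adjusted p = 0.0052). Fabp5 reversed, lower by 0.79 without cytokine and higher by 0.88 with IFN-gamma. Pfkp reversed the other way, from 0.41 to -0.40.

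**Figure D5:**
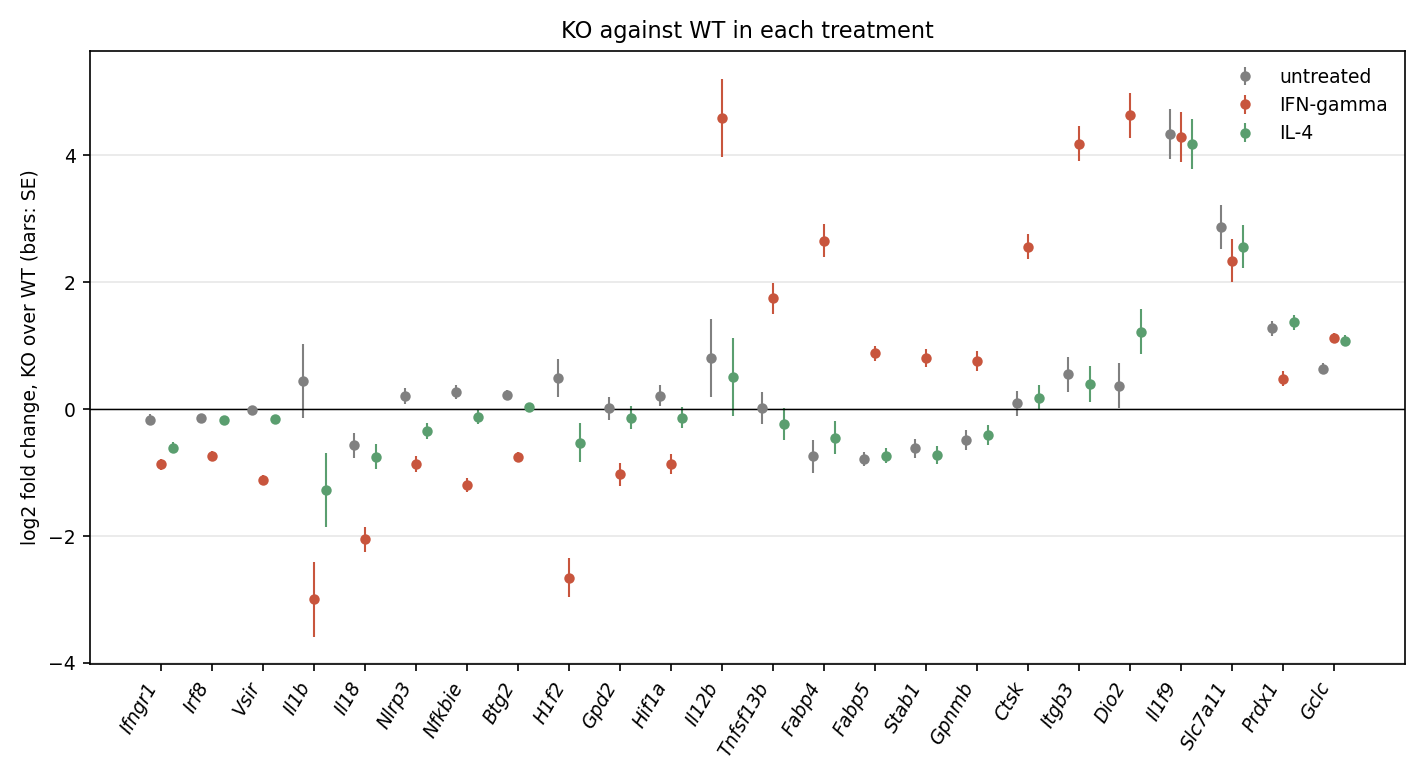
Log2 fold change of KO over WT for 24 genes in untreated cells (grey), with IFN-gamma (red) and with IL-4 (green), with SE bars. For Il12b, Fabp4, Ctsk, Itgb3 and Dio2 the IFN-gamma point is the highest of the 3 treatments, and for Vsir, Btg2 and Nlrp3 the lowest. Across genes, Il1b (-3.0) and H1f2 (-2.655) lie below Vsir (-1.112) with IFN-gamma. Il1f9 and Slc7a11 are high in all 3 treatments.

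Markers of other cells that marrow cultures can hold were counted as a whole. For stromal cells, 18 of 20 markers were in the table and 4 of 15 tested were higher, with summed counts of 1211 to 1804 in WT and 3847 to 5154 in KO. Most of that sum was Kitl, the ligand of the receptor Kit, at 960 to 1323 and 3298 to 3917. The remaining stromal markers summed to 251 to 480 in WT and 428 to 1236 in KO, and Dcn, Pdgfra, Cxcl12 and Lepr stayed under 10 in all 6 libraries. Endothelial markers, 8 of 11 in the table, summed to 2407 to 2902 in WT and 6837 to 8266 in KO, carried by Kdr (1.51) and Vwf (1.92). Pecam1 was lower (-1.08), and Tie1, Egfl7, Esam and Sox18 stayed under 10. Megakaryocyte markers, 9 of 11 in the table, summed to 954 to 1414 and 3183 to 4268, again mostly Vwf, with Ppbp at 0.

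Neutrophil markers, 9 of 16 in the table, summed to 3369 to 3436 in WT and 2921 to 2981 in KO, nearly all Csf3r, with Cxcr2 at 0 and S100a8 at 0, 1.13 and 1.18 in WT and 56.8, 26.0 and 59.1 in KO. Dendritic cell markers, 10 of 13 in the table, summed to 3211 to 3976 in WT and 3045 to 4053 in KO, with Xcr1 lower (-2.17) and Ly75 higher (1.83). Monocyte markers, all 13 in the table, summed to 3543 to 4389 and 3518 to 4006. Sums were low for T and NK cells (31.4 to 70.8 and 41.7 to 55.0, with Cd2 at 0) and for mast cells (125 to 263 and 47.6 to 115), and the 3 erythroid markers in the table stayed under 10. B cell markers, 9 of 15 in the table, summed to 984 to 1602 and 1482 to 2108, mostly the adaptor Blnk. The part of other cells in the differences above was not tested.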

How the data were processed

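RNA was measured in 18 libraries of 6 groups, 3 animals each. The submitters' processing notes name STAR 2.5 for alignment, the build GRCm38 and HTSeq 0.6 for counting. No source used here gives the strand setting, so genes that overlap in opposite orientation are uncertain. The deposited values are a signal in normalized counts: the authors divided the gene counts of a library by its size factor. The table had 21428 rows for 21380 identifiers, and an identifier on several rows (34 cases) entered once. It had 0 other columns of single libraries.

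A gene was tested if at least 3 libraries reached a normalized count of 10. limma 3.58.1 (R 4.3.3, trend option, moderated two-sided tests) was fitted to log2 values after adding 1, with 6 group means and 12 residual degrees of freedom, and p-values were adjusted by Benjamini-Hochberg. All groups share the estimate of spread. The difference from untreated cells is the interaction of genotype and treatment in the same fit. On simulated counts for 13951 genes, the same steps recovered 96% of 100 genes changed by 1 and 100% of 100 changed by 2 on the log2 scale, with 14 false calls among 210. The changed genes were drawn from those with a WT mean well above the filter. The simulated spread followed the trend fitted by edgeR, with no animal effect and no outlying library. These rates therefore do not cover genes of low counts or a library such as WT replicate 1 with IFN-gamma.

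Whole reads were recovered from the steps between the values of a column (100% of values whole within 0.1). edgeR 4.0.16, limma-voom and DESeq2 1.42.0 were run on these reads in 17 libraries, without KO IL-4 replicate 1, whose step was unsure. edgeR called 4241 genes. Total reads were 9.77 to 49.5 M per library.

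The comparison, members, gene lists and tests were chosen with earlier results of these data known. Named genes are Ldha, Ldhb, Lyz2, Lyz1, activation markers, the largest called changes, up to 12 in each direction (mean of at least 100, no overlap), up to 10 each way by difference of means, up to 5 called genes per list by adjusted p (where none is called, up to 2 by mean), and up to 8 by the difference from untreated. The text names a part of these.

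Animal codes join libraries across treatments: deviations of libraries of the same animal from their group means correlated across genes at 0.00364 to 0.243. KO and WT libraries of the same number are different animals, with -0.0294, 0.088 and -0.107 under IFN-gamma. Alternatives changed the pseudocount, filter, scaling, tool, block and libraries. Promoter windows are those of RefSeq for GRCm38.p6.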

Additional observations from a re-analysis of the deposited data

Results flagged for a closer look

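For 12 of the genes named by the rule's fixed and largest-shift parts, the genotype effect with IFN-gamma differed from that in untreated cells. The largest-shift part took up to 8 genes that had already passed this same test. For those genes the result was fixed by the choice, and the adjusted p only describes them. Values are log2 KO over WT with IFN-gamma minus that in untreated cells, from the limma interaction.

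The shift was upward for the deiodinase Dio2 (4.27, adjusted p = 6.4e-05), Il12b (3.79, adjusted p = 0.011), the protease Htra1 (3.65, adjusted p = 0.0032), Itgb3 (3.63, adjusted p = 3.4e-05), Fabp4 (3.40, adjusted p = 3.5e-05), Ciita (1.08, adjusted p = 0.035) and Ldha (0.36, adjusted p = 0.047). It was downward for the transporter Slc4a11 (-3.81, adjusted p = 0.0016), Nr4a3 (-3.54, adjusted p = 0.0017), Il1b (-3.44, adjusted p = 0.014), Hif1a (-1.08, adjusted p = 0.0063) and Lyz2 (-0.51, adjusted p = 0.034). For Ldha the shift means that KO libraries held a larger share of the WT level with IFN-gamma than without it.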

How the results depend on the processing

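The count of genes that differed with IFN-gamma, 3980, ranged from 2839 with the 6 libraries alone to 4486 with DESeq2, and from 2916 to 3572 with each library left out. No gene called in both changed direction under any alternative. With the 6 libraries alone, 2590 of the 3980 genes were called. The replicate block, on numbers that join different animals, gave 4153. The difference from untreated, 1307 genes, ranged from 874 to 1249 with a library left out; it was 1450 with the replicate block, and 2073 (973 higher, 1100 lower) with the block by animal code, an alternative added after seeing the data. Of 315 named genes, 298 were called, and 217 of these under every alternative with a value. Of 2736 list counts compared, 358 moved by more than 1.5 times.

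Genes that did not pass changed sign around 0 in 13 values. Cd4 (main -0.09) ranged from -0.50 to 0.21 with a library left out, above 0 without KO replicate 3 (0.05), WT replicate 2 (0.01) and WT replicate 3 (0.21). Kit (main -0.47) ranged from -0.81 to 0.0917, above 0 without KO replicate 1. Cd274 (main -0.01) was 0.01 with TMM-type factors (0.01189), with quantile normalization (0.01159) and without KO replicate 1 (0.01278), and ranged from -0.0698 to 0.0921 with a library left out, the highest without WT replicate 1, in the full fit and with the 6 libraries alone. Likewise without WT replicate 1, Il6 was 0.0283 and Il10 -0.40, over ranges of -0.49 to 0.0283 and of -0.40 to 0.79. Depth of at least 20.1 M reads per library limits mainly genes of a few counts, such as Spry1 in KO.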
